A study of Sus scrofa with 12 samples.

Results

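The genes described here are the Wnt ligands, their export proteins, their receptors and co-receptors, and the nuclear effectors and feedback genes of the pathway. They were chosen by symbol: every gene whose pig symbol is WNT or FZD followed by a digit, and a fixed set of 20 further genes (LRP5, LRP6, ROR1, ROR2, RYK, CTNNB1, LEF1, TCF7, TCF7L1, TCF7L2, AXIN1, AXIN2, LGR4, LGR5, RNF43, ZNRF3, NKD1, SP5, PORCN and WLS). This rule found 46 of the 19681 genes in the tables, namely 18 WNT ligands, 10 frizzled receptors and 18 of the 20 further genes. TCF7L1 and SP5 were not found by symbol and are not analysed here.

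Wnt proteins are secreted lipid-modified signals. PORCN attaches the lipid in the endoplasmic reticulum and WLS carries the modified ligand to the cell surface, where a frizzled receptor binds it together with LRP5 or LRP6. Binding stops the degradation of beta-catenin (CTNNB1), which enters the nucleus and acts on target genes through TCF/LEF factors. ROR1, ROR2 and RYK are alternative co-receptors, often linked to beta-catenin-independent signalling. LGR4 and LGR5 are receptors of R-spondins and protect frizzleds from the ligases RNF43 and ZNRF3, while AXIN1, AXIN2 and NKD1 restrain the signal inside the cell. Wnt activity is known for its part in forming primitive streak and mesoderm, the embryonic source of endothelium.

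RNA was sequenced from porcine iPS cells taken through endothelial induction and from AOC, a porcine endothelial cell line that served as the reference. The induced cells were collected at day 2 (IEC2), day 4 (IEC4) and day 12 (IEC12), with 3 replicates, lettered A, B and C, in each of the 4 groups and 12 libraries in all. The study's methods give the sequence of media: CHIR99021, an inhibitor of GSK3 that activates the beta-catenin pathway, up to day 2, then BMP4, FGF2 and VEGF up to day 4, then endothelial growth medium with VEGF. All IEC groups descend from iPS cells that passed through the CHIR99021 stage. AOC is a cell line and not a further time point, and no untreated arm of the induced cells is analysed here.

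Expression was given as FPKM, fragments scaled to transcript length and to the mapped fragments of a library, so read depth is unknown and no counting interval could be given. The FPKM totals ranged from 335976 to 457194 over the 12 libraries, and 8357 to 10467 genes reached an FPKM of 1. An FPKM of 0 can be a failed estimate, so such genes are described as listed at 0. The label of endothelial cells was checked with 8 of 9 endothelial markers found by symbol (VWF was not found). Their summed FPKM lay between 263 and 383 in the AOC libraries. It lay between 3.27 and 5.7 in IEC2, between 1.7 and 2.03 in IEC4 and between 0.415 and 0.531 in IEC12, and CDH5, the junctional cadherin of endothelium, was listed at 0 in all 9 IEC libraries. Among these markers KDR went the other way in IEC2, at 2.45, 3.99 and 2.42 FPKM against 1.32, 1.31 and 1.46 in AOC, and did not exceed 0.302 in IEC4 or IEC12. The IEC groups are therefore called by their day. Epithelial markers (CDH1, EPCAM, KRT8 and KRT18, summed) ran from 13.3 to 21.2 at day 2, from 316 to 822 at day 4 and from 4.68 to 16 at day 12, and did not exceed 0.0509 in AOC. In bulk RNA, fewer cells of a type and less RNA per cell cannot be told apart.

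Of the 46 genes, 19 stayed below an FPKM of 1 in every library, 23 had a mean of at least 1 in at least 1 group, and 0 were listed at 0 throughout. Expression was concentrated outside the ligands. Averaged within a group, only 4 of the 18 WNT ligands reached an FPKM of 1 in IEC4, 3 did in IEC2, 3 in IEC12 and 1 in AOC. By contrast, 6 of 10 frizzleds reached it at each IEC stage and 2 in AOC, and the carrier WLS and CTNNB1 exceeded it everywhere. FPKM is divided by transcript length, but no other difference between genes was corrected here. Levels and shares of different genes therefore compare only roughly.

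**Figure D1:**
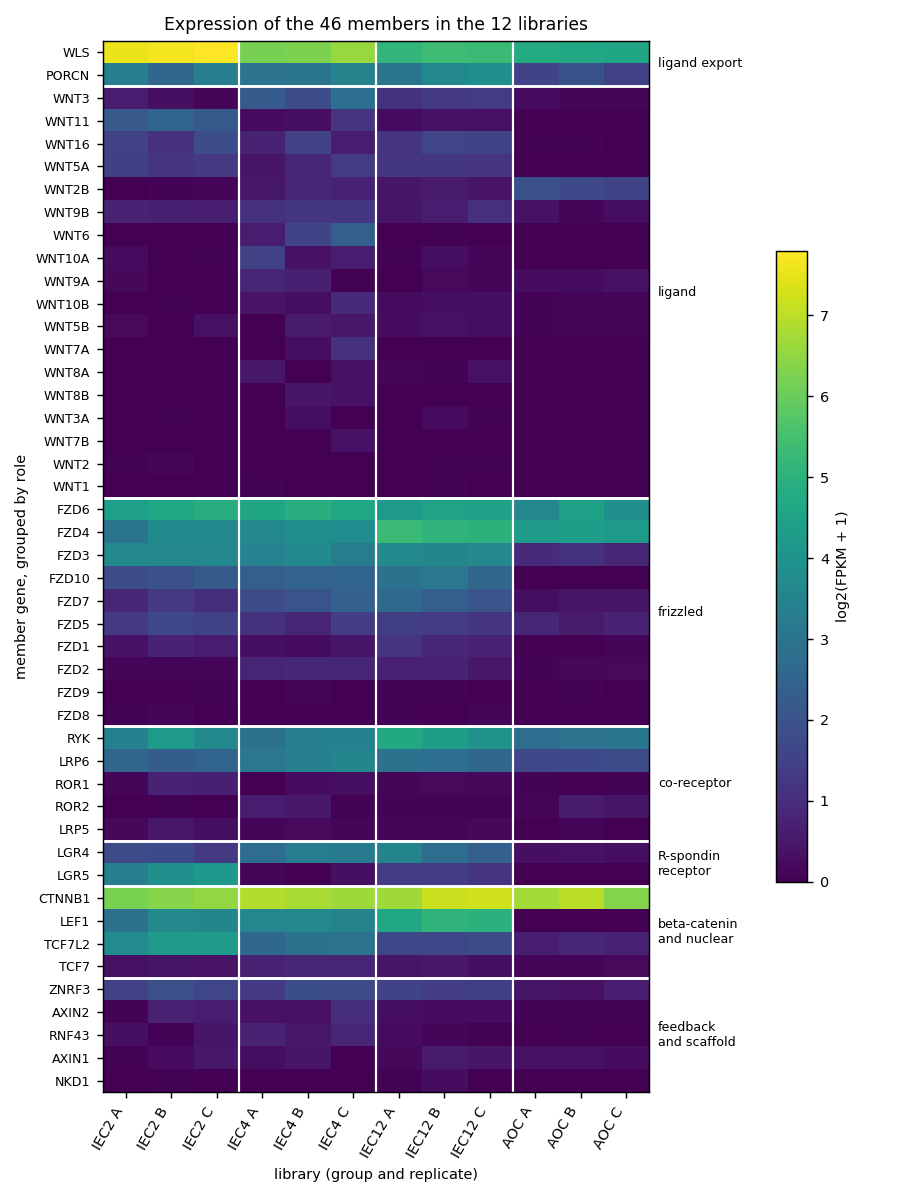
Heat map of log2(FPKM + 1) for the 46 Wnt genes (rows, ordered by role) in each of the 12 libraries (columns, grouped by IEC2, IEC4, IEC12 and AOC). WLS and CTNNB1 are high in all libraries, LGR5 and WNT11 are highest in IEC2, WNT3 and WNT6 in IEC4, LEF1 and FZD4 in IEC12, and WNT2B in AOC.

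Tests were made with limma on log2(FPKM + 1), with Benjamini-Hochberg adjustment over all genes tested, and a gene counts as higher or lower where the adjusted p was below 0.05 and the absolute log2 fold change above 1. Fold changes on this scale understate the change of genes near or below an FPKM of 1, and a pseudocount of 0.1 in place of 1 moved several by over 1.5 times, for example LGR5 and WNT3 in IEC4 against IEC2 to -6.15 and 3.58 and LEF1 in AOC against IEC12 to -8.13. Genes had to reach an FPKM of 1 in 3 or more libraries to be tested, which 21 of the 46 Wnt genes passed among the 9 IEC libraries and 22 among all 12. A gene that passes this filter only through the group where it is high is bound to differ, so the counts below describe these genes and support nothing about the pathway. The study names its replicates as biological repeats without saying whether they were separate inductions, and p-values measure the spread between these samples.

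Ligand export was dominated by WLS (chr6:144242639-144529659, Sscrofa11.1), whose level stepped down at each stage. Its FPKM was 188, 202 and 221 in IEC2, 72.5, 75.7 and 95.5 in IEC4, 34.1, 40.5 and 38.5 in IEC12, and 26.6, 24.2 and 23.4 in AOC. No libraries of neighbouring stages overlapped. WLS fell by 1.32 ± 0.14 (SE) on the log2 scale from IEC2 to IEC4 (limma adjusted p = 0.000104, n = 3 per group) and from IEC2 to IEC12 by 2.41 ± 0.14 (limma adjusted p = 2.68e-06). Between IEC4 and IEC12 the change was -1.08 ± 0.14 (limma adjusted p = 0.00037). That step no longer passed the fold limit when libraries were scaled by median-of-ratios size factors (-0.85) or when IEC4 C was left out (-0.96). AOC lay below IEC12 without passing the fold limit (log2 fold change -0.59 ± 0.13). The acyltransferase PORCN was at 7.75 ± 2.39 FPKM in IEC2, 8.1 ± 1.94 in IEC4, 10.8 ± 3.34 in IEC12 and 2.26 ± 0.588 in AOC (mean ± SD, n = 3 per group, as for all means below). Its IEC ranges overlapped, and AOC was lower than IEC12 by a log2 fold change of -1.83 ± 0.27 (limma adjusted p = 0.000121).

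Among the ligands, WNT11 led in IEC2 and WNT3 in IEC4, both at low levels. In IEC12 none stood clearly ahead, with WNT16, WNT3 and WNT5A at 26.2%, 21.3% and 20.2% of ligand FPKM. WNT11, a ligand known from gastrulation movements and heart formation, was at 3.56, 4.74 and 3.62 FPKM in IEC2. It was at 0.174, 0.24 and 1.26 in IEC4, at 0.167, 0.309 and 0.282 in IEC12, and at most 0.00887 in AOC. The IEC2 libraries lay above all others, and WNT11 fell by 1.73 ± 0.25 on the log2 scale to IEC4 (limma adjusted p = 0.000681) and by 1.98 ± 0.25 to IEC12 (limma adjusted p = 0.000244). Outside IEC2 only IEC4 C reached an FPKM of 1, so WNT11 passed the filter through IEC2 and these p-values are no support. As a share of all WNT ligand FPKM, WNT11 made up 46.3% ± 9.97 in IEC2 and later 3.35% ± 2.67 (IEC4) and 3.64% ± 0.528 (IEC12, SD, n = 3 each).

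WNT3 (chr12:17627291-17681197), a canonical ligand needed for primitive streak formation in the mouse, had the opposite course. Its FPKM was 0.518, 0.236 and 0.0861 in IEC2, 3.81, 2.6 and 6.18 in IEC4, 1.22, 1.48 and 1.64 in IEC12, and 0.16, 0.078 and 0.0663 in AOC. The 3 stages did not overlap, and AOC overlapped with IEC2. WNT3 rose by 1.98 ± 0.26 on the log2 scale from IEC2 to IEC4 (limma adjusted p = 0.000348) and changed by -1.03 ± 0.26 from IEC4 to IEC12 (limma adjusted p = 0.00996). The second step did not pass the fold limit under median-of-ratios scaling (-0.86), without IEC4 C (-0.77) or without IEC12 A (-0.97). IEC12 against IEC2 gave 0.94 ± 0.26, below the fold limit, which it passed with a pseudocount of 0.1 (2.18) and without IEC2 A (1.07) or IEC12 A (1.01).

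Further ligands were seen mainly in IEC4, with large differences between its libraries. WNT6 was at 0.514, 2.05 and 4.13 FPKM in IEC4 A, B and C, was listed at 0 in IEC2 and AOC, and did not exceed 0.0364 in IEC12. WNT7A was at 0.00835, 0.23 and 1.18 in IEC4 and was listed at 0 in the other 9 libraries. WNT10A was at 1.93, 0.304 and 0.505 in IEC4 and did not average above 0.121 in any other group. WNT6 and WNT7A, ligands often made by epithelia, were both lowest in IEC4 A and highest in IEC4 C. The summed epithelial markers stood in the same order, at 316, 462 and 822 in A, B and C. Most of that sum was KRT8 (300, 435 and 748). KRT18 and EPCAM kept the order too, while CDH1 was at 7.51, 6.54 and 42.8. The part of epithelial cells in these ligand levels was not tested. WNT6, WNT7A and WNT10A did not pass the filter. Without the filter, WNT6 passed the test in IEC4 against IEC2 and in IEC12 against IEC4.

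WNT9B, WNT16 and WNT5A stayed between 0.371 and 2.61 FPKM in the IEC libraries and passed the test in no comparison between stages. WNT16 was at 1.91 ± 0.719, 1.01 ± 0.72 and 1.81 ± 0.452 in IEC2, IEC4 and IEC12, and WNT5A, the best known beta-catenin-independent ligand, was at 1.49 ± 0.286, 0.916 ± 0.597 and 1.34 ± 0.0259. The 2 made up 26.2% ± 2.17 and 20.2% ± 4.67 of ligand FPKM in IEC12. In AOC, WNT16 did not exceed 0.0447 FPKM and WNT5A did not exceed 0.0124. Relative to IEC12 these were lower by log2 fold changes of -1.44 ± 0.25 and -1.22 ± 0.19 (limma adjusted p = 0.000368 and 0.000203).

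WNT2B was the ligand of the endothelial line. It was at 2.79, 2.31 and 2.03 FPKM in AOC A, B and C, against 0.38, 0.472 and 0.333 in IEC12, 0.408, 0.786 and 0.647 in IEC4, and 0, 0.0572 and 0.0813 in IEC2. The AOC libraries lay above all others, with a log2 fold change of 1.27 ± 0.14 over IEC12 (limma adjusted p = 8.08e-06), and WNT2B made up 76.6% ± 3 of ligand FPKM in AOC. WNT2B passed the filter only through AOC, so the difference was bound to be found and its p-value is no support. It was not tested among the IEC stages. The summed FPKM of the 18 ligands was 8.64 ± 0.393 in IEC2, 14.1 ± 4.81 in IEC4, 6.84 ± 1.29 in IEC12 and 3.1 ± 0.454 in AOC.

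The remaining ligands were WNT1, WNT2, WNT3A, WNT5B, WNT7B, WNT8A, WNT8B, WNT9A and WNT10B. Each was below an FPKM of 1 in every library, and the highest value among them was 0.956, for WNT10B in IEC4 C. In the RefSeq annotation of Sscrofa11.1, 4 pairs of ligand genes are neighbours. WNT3 and WNT9B lie 27.8 kb apart on chromosome 12, WNT6 and WNT10A 7.84 kb apart on chromosome 15, and WNT9A and WNT3A 25.6 kb apart on chromosome 2. Both genes of each of these pairs had their highest mean in IEC4, as did 12 of the 18 ligands in all. Some of these means were near 0 and rested on 1 library, such as 0.0749 for WNT3A (0, 0.225 and 0 in IEC4) and 0.103 for WNT7B (0, 0 and 0.308). The share of all genes with their highest mean in IEC4 was not counted, so these peaks cannot be called particular to ligands. More genes reached an FPKM of 1 in the IEC4 libraries (9909 to 10467) than in those of any other group. WNT10B and WNT1 overlap on chromosome 5, so reads of the shared stretch cannot be assigned to either without strand. This pair did not share a peak: WNT10B had its highest mean in IEC4 and WNT1 in IEC12 (0.0176, against 0.0165 in IEC4).

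**Figure D2:**
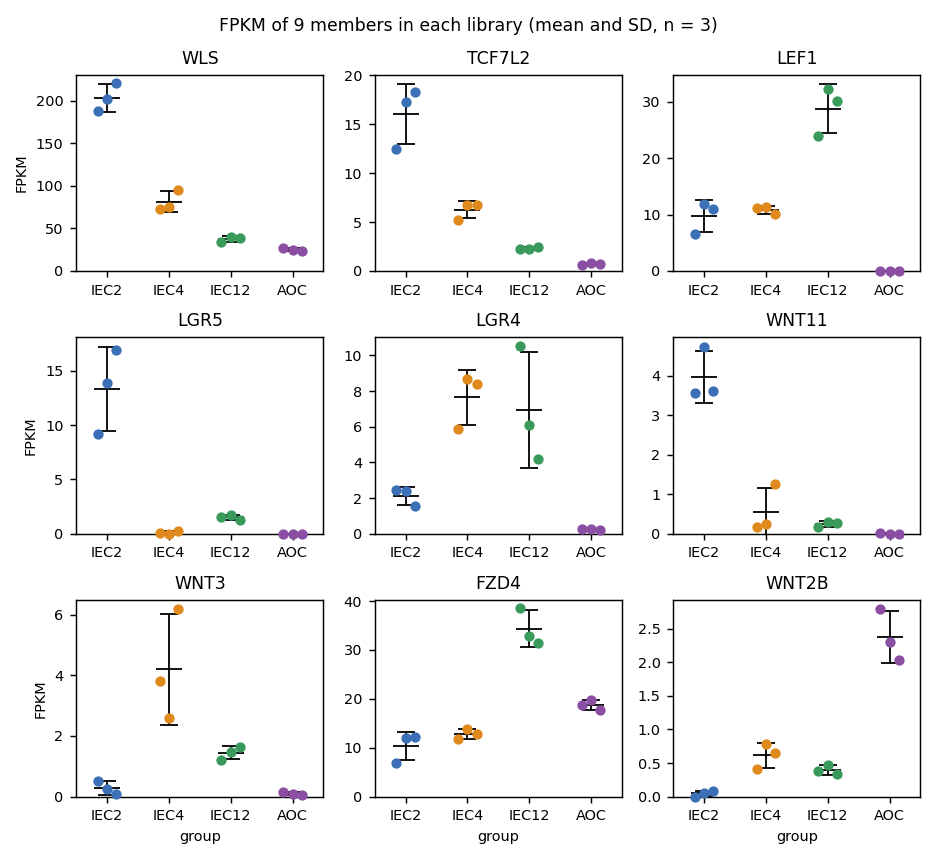
FPKM (y axes, 1 scale per panel) of selected Wnt genes in IEC2, IEC4, IEC12 and AOC. Each point is 1 library, horizontal bars are means and vertical bars are ± 1 SD (n = 3), clipped at 0. The groups do not overlap for WLS or TCF7L2, and LEF1 in AOC lies at 0.00653 or below.

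Among the frizzleds, FZD4 and FZD7 were those that passed the test between stages. FZD4 (chr9:20714995-20721460), a receptor of Wnts and of norrin known for its role in retinal vessels, was at 6.94, 12 and 12.1 FPKM in IEC2. It was at 11.8, 13.8 and 12.7 in IEC4, 38.6, 32.9 and 31.5 in IEC12, and 18.7, 19.8 and 17.8 in AOC. IEC12 lay above all other libraries and IEC2 overlapped with IEC4. FZD4 rose by 1.36 ± 0.20 on the log2 scale from IEC4 to IEC12 (limma adjusted p = 0.000794) and by 1.67 ± 0.20 from IEC2 (limma adjusted p = 0.000185). AOC was below IEC12 by a log2 fold change of -0.84 ± 0.18 that did not pass the fold limit.

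FZD7, a receptor prominent in pluripotent cells, was at 0.775, 1.49 and 1.04 FPKM in IEC2, 2.54, 3.07 and 4.19 in IEC4, 5.44, 4.1 and 3.2 in IEC12, and 0.218, 0.346 and 0.387 in AOC. IEC2 lay below the later stages, IEC4 and IEC12 overlapped, and AOC was lowest. FZD7 rose by 1.02 ± 0.23 on the log2 scale from IEC2 to IEC4 (limma adjusted p = 0.00759), close enough to the fold limit that it was lost under both other scalings (0.85 with median-of-ratios factors, 0.99 at equal totals) and without IEC2 A (0.90) or IEC4 C (0.87). Against IEC2 the rise at IEC12 was 1.31 ± 0.23 (limma adjusted p = 0.0016). In AOC it was lower than in IEC12 by a log2 fold change of -1.97 ± 0.21 (limma adjusted p = 6.23e-06).

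FZD10 was at 2.55, 2.82 and 3.58 FPKM in IEC2, 4.09, 4.62 and 4.85 in IEC4 and 6.59, 7.44 and 5 in IEC12, and was listed at 0 in the 3 AOC libraries. The IEC stages did not overlap, but IEC12 against IEC2 gave a log2 fold change of 0.88 ± 0.19, below the fold limit, which it passed without IEC12 C (1.01) and with a pseudocount of 0.1 (1.06). AOC against IEC12 passed the test (limma adjusted p = 4.21e-08), and no fold is given against a group at 0. FZD3 held a steady level through the induction, at 11.6 ± 0.133, 10.4 ± 1.82 and 11.6 ± 0.782 FPKM in IEC2, IEC4 and IEC12. In AOC it was at 0.954, 1.22 and 0.804, lower than IEC12 by a log2 fold change of -2.67 ± 0.15 (limma adjusted p = 3.09e-08).

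FZD6 was the most abundant frizzled in IEC2 and IEC4, at 24 ± 4.19 and 25.2 ± 2.75 FPKM, and was at 19.9 ± 2.09 in IEC12 and 15.3 ± 4.87 in AOC. It passed the test in no comparison, nor did FZD5, which ranged from 0.474 to 2.25 and passed in AOC against IEC12 with a pseudocount of 0.1 (-1.09). The other 4 frizzleds were low: FZD1 reached 1.3 in IEC12 A, and FZD2, FZD8 and FZD9 stayed below 1 in every library. As a share of frizzled FPKM, FZD4 made up 19.4% ± 3.09 in IEC2, 21.8% ± 0.338 in IEC4, 43.1% ± 2.37 in IEC12 and 52.4% ± 6.14 in AOC. FZD6 made up 45.6% ± 2.2, 43% ± 1.22, 25.2% ± 3.85 and 41.7% ± 6.7. The 2 receptors together thus accounted for most of the frizzled signal in every group, with FZD6 ahead early and FZD4 ahead in IEC12. The ranges of the 2 shares overlapped in AOC, where FZD6 was the higher in library B.

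Of the 5 co-receptors, LRP6 and RYK were expressed, and LRP5, ROR1 and ROR2 stayed below an FPKM of 1 in every library, the highest of them being ROR1 at 0.625 in IEC2 B. LRP6 was at 4.94, 3.87 and 4.66 FPKM in IEC2, 7.53, 9.44 and 10.6 in IEC4, 6.52, 6.23 and 4.96 in IEC12 and 2.18, 2.28 and 2.45 in AOC. The IEC4 libraries lay above all others, but the log2 fold change over IEC2 was 0.89 ± 0.18, below the fold limit, which it passed (1.01) without IEC4 A and with a pseudocount of 0.1. AOC was lower than IEC12 by a log2 fold change of -1.06 ± 0.16 (limma adjusted p = 0.000149), which did not pass under median-of-ratios scaling (-0.85) or without IEC12 A (-0.99).

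RYK, a receptor with an inactive kinase domain, was at 9.85, 17.8 and 11.9 FPKM in IEC2, 6.46, 9.2 and 9.77 in IEC4, 25.4, 19.3 and 14.7 in IEC12 and 5.93, 6.81 and 7.35 in AOC. IEC12 lay above IEC4 without overlap and overlapped with IEC2. RYK rose by 1.12 ± 0.26 on the log2 scale from IEC4 to IEC12 (limma adjusted p = 0.00733), a call lost with libraries scaled to equal totals (0.92) and without IEC4 A (0.96) or IEC12 A (0.93). In AOC it was lower than in IEC12 by a log2 fold change of -1.40 ± 0.24 (limma adjusted p = 0.000336).

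The R-spondin receptors changed places. LGR5 (chr5:35463257-35595234), a target gene of beta-catenin and a stem cell marker in the intestine, was at 9.19, 13.9 and 16.9 FPKM in IEC2. It was at 0.078, 0 and 0.244 in IEC4, at 1.58, 1.68 and 1.24 in IEC12, and at 0, 0.00873 and 0.00866 in AOC. The IEC2 libraries stood far above the rest, and IEC12 stood above IEC4 and AOC. LGR5 fell by 3.66 ± 0.23 on the log2 scale from IEC2 to IEC4 (limma adjusted p = 5.33e-06), the largest change of any tested Wnt gene between stages. It was higher again in IEC12 than in IEC4, by 1.18 ± 0.23 (limma adjusted p = 0.00288), and stayed below IEC2 by a log2 fold change of -2.48 ± 0.23 (limma adjusted p = 3.42e-05).

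LGR4 was at 2.43, 2.37 and 1.53 FPKM in IEC2, 5.86, 8.67 and 8.42 in IEC4, 10.5, 6.11 and 4.21 in IEC12 and 0.249, 0.291 and 0.226 in AOC. IEC2 and AOC each lay apart, while IEC4 and IEC12 overlapped. LGR4 rose by 1.47 ± 0.29 on the log2 scale from IEC2 to IEC4 (limma adjusted p = 0.00356). At IEC12 it was above IEC2 by 1.29 ± 0.29 (limma adjusted p = 0.00588), a call lost without IEC12 A (0.98). Of the summed FPKM of the 2 receptors, LGR5 took 85.4% ± 6.31 in IEC2, 1.38% ± 1.41 in IEC4 and 19.2% ± 5.28 in IEC12. Relative to IEC12, AOC was lower in LGR4 by a log2 fold change of -2.58 ± 0.26 and in LGR5 by -1.31 ± 0.20 (limma adjusted p = 5.01e-06 and 0.000121).

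At the nuclear end of the pathway, TCF7L2 fell through the induction, and LEF1 rose between IEC4 and IEC12. TCF7L2 (chr14:123343695-123547332), a TCF factor that can activate or repress targets, was at 12.5, 17.3 and 18.3 FPKM in IEC2, 5.23, 6.73 and 6.76 in IEC4, 2.22, 2.2 and 2.45 in IEC12 and 0.567, 0.804 and 0.673 in AOC. The 4 groups did not overlap. TCF7L2 fell by 1.22 ± 0.19 on the log2 scale from IEC2 to IEC4 (limma adjusted p = 0.000857) and by 2.36 ± 0.19 from IEC2 to IEC12 (limma adjusted p = 1.44e-05). The step from IEC4 to IEC12 was -1.13 ± 0.19 (limma adjusted p = 0.00127) and did not pass the fold limit under median-of-ratios scaling (-0.94). AOC was below IEC12 by a log2 fold change of -0.97 ± 0.17, just short of the fold limit, which it passed without AOC B (-1.02) and with a pseudocount of 0.1 (-1.62).

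LEF1 (chr8:113824511-113944078), the TCF/LEF factor usually tied to activation of targets, was at 6.6, 11.8 and 10.9 FPKM in IEC2, 11.1, 11.4 and 10.1 in IEC4, and 23.9, 32.3 and 30.2 in IEC12. In AOC it was listed at 0 in B and C and at 0.00653 in A. IEC2 and IEC4 overlapped and did not differ past the test (log2 fold change 0.17 ± 0.21, limma adjusted p = 0.545), and IEC12 lay above both. LEF1 rose by 1.32 ± 0.21 on the log2 scale from IEC4 to IEC12 (limma adjusted p = 0.00112) and by 1.49 ± 0.21 from IEC2 (limma adjusted p = 0.000443). AOC was lower than IEC12 by a log2 fold change of -4.88 ± 0.20 (limma adjusted p = 2.02e-09), the largest difference among the Wnt genes with a fold in this comparison.

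As a share of the FPKM of LEF1, TCF7 and TCF7L2 together, LEF1 went from 37% ± 2.98 in IEC2 to 60.9% ± 3.89 in IEC4 and 91.5% ± 1.11 in IEC12, and TCF7L2 from 61.7% ± 2.88 to 34.9% ± 3.86 and 7.38% ± 1.06. No library of one IEC stage overlapped another in either share, and these shares do not depend on how libraries were scaled. In AOC the 3 factors summed to 0.669, 0.88 and 0.83 FPKM, of which TCF7L2 was 85.7% ± 5.2. TCF7 did not exceed 0.773 FPKM in any library and was highest in IEC4. CTNNB1 was abundant throughout, at 82.4 ± 8.1 FPKM in IEC2, 108 ± 8.79 in IEC4, 131 ± 25.6 in IEC12 and 104 ± 22.4 in AOC, and passed the test in no comparison. Messenger RNA does not show how much beta-catenin protein is stabilised.

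**Figure D3:**
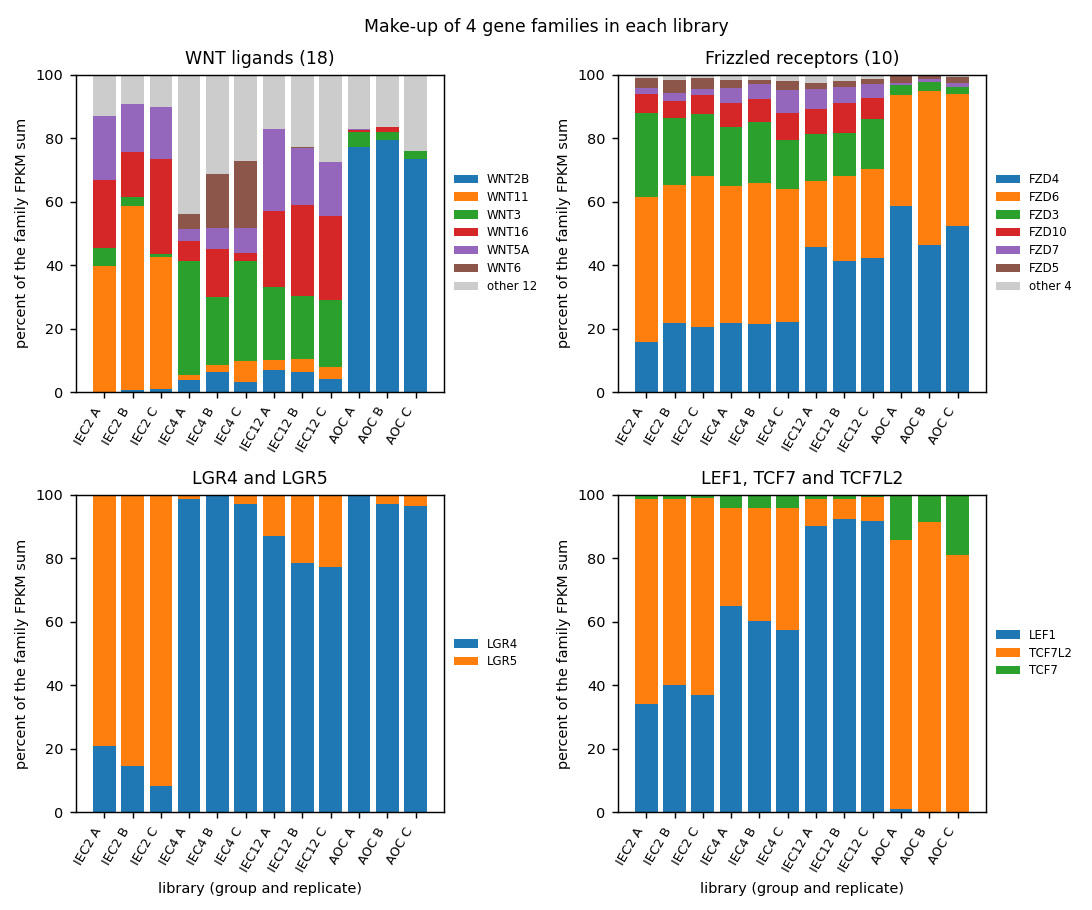
Stacked bars of the share (percent, y axis) of family FPKM taken by each gene in each library (x axis, grouped by IEC2, IEC4, IEC12 and AOC). The families are the WNT ligands, frizzleds, R-spondin receptors and TCF/LEF factors, and the ligands and frizzleds with the smallest shares are pooled. On average over a group, LEF1 grows from 37% to 91.5% of the TCF/LEF bar between IEC2 and IEC12, and LGR5 falls from 85.4% of its bar in IEC2 to 1.38% in IEC4.

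The feedback genes were low. ZNRF3 was at 2.22 ± 0.477, 2.23 ± 0.622 and 1.82 ± 0.21 FPKM in IEC2, IEC4 and IEC12 and at 0.396 ± 0.135 in AOC. It passed the test only in AOC against IEC12, at -1.01 ± 0.18 (limma adjusted p = 0.00043), and lost that call under 5 of the 12 alternatives run, among them without AOC A (a value that rounds to the limit itself), AOC B (-0.96) or IEC12 A (-0.95). AXIN2, a widely used reporter of beta-catenin activity, was at 0.0618, 0.635 and 0.506 FPKM in IEC2, 0.311, 0.278 and 1.01 in IEC4, 0.222, 0.203 and 0.192 in IEC12 and 0.0583, 0.038 and 0.0471 in AOC. The IEC2 range overlapped with both later stages, and AXIN2 did not pass the filter. AXIN1, RNF43 and NKD1 stayed below an FPKM of 1 in every library, the highest being RNF43 at 0.798 in IEC4 C.

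Counted over the genes, IEC4 against IEC2 gave 3 higher (WNT3, LGR4 and FZD7) and 4 lower (LGR5, WNT11, WLS and TCF7L2) of 21 tested, where 18.3% of all 10542 genes tested passed, 13.5% higher and 4.8% lower. With no filter, 8 of the 46 passed, against 10.1% of all genes. IEC12 against IEC4 gave 4 higher (FZD4, LEF1, LGR5 and RYK) and 3 lower (TCF7L2, WLS and WNT3) of 21, against 22.6% of all genes (6.25% higher and 16.4% lower), and 8 of 46 against 12.2% with no filter. Under median-of-ratios scaling this split became 4 higher and 0 lower. IEC12 against IEC2 gave 4 higher (FZD4, LEF1, FZD7 and LGR4) and 4 lower (LGR5, WLS, TCF7L2 and WNT11), against 21.4% of all genes (11.1% higher and 10.3% lower), and 8 of 46 against 11.5% with no filter. The median log2 fold change of the tested Wnt genes was 0.07, 0.18 and 0.00 in these comparisons, where all tested genes had medians of 0.20, -0.15 and 0.03. Median-of-ratios scaling brought the medians of all genes to -0.01, 0.04 and 0.02. Under the study's stricter limits (p and adjusted p below 0.001, absolute log2 fold change above 3), LGR5 passed in IEC4 against IEC2, where 1.18% of all genes did. No Wnt gene passed limma's test at those limits in IEC12 against IEC4 or IEC12 against IEC2, where 0.939% and 1.22% of all genes did.

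In AOC against IEC12, 1 of 22 tested Wnt genes was higher (WNT2B) and 13 were lower, where 32.6% of all 11053 genes tested passed, 13.9% higher and 18.6% lower. WNT2B passed the filter only through AOC, so its difference was bound to be found. With no filter, 14 of 46 passed, against 19.1% of all genes. The lower genes were LEF1, FZD3, FZD10, LGR4, FZD7, PORCN, WNT16, RYK, LGR5, WNT5A, WNT3, LRP6 and ZNRF3, and every role described above had at least 1 of them. With a pseudocount of 0.1, TCF7L2, FZD5, WNT11 and WNT9B also passed as lower. At the study's limits LEF1 passed, against 4.41% of all genes. WNT3 was lower by a log2 fold change of -1.15 ± 0.22 (limma adjusted p = 0.000918). The median log2 fold change was -1.10, or -1.06 without FZD10, against -0.21 for all genes. This comparison sets a cell line against unsorted day 12 cells in which the RNA of the endothelial markers was near 0. Line, culture and cell type therefore cannot be told apart.

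**Figure D4:**
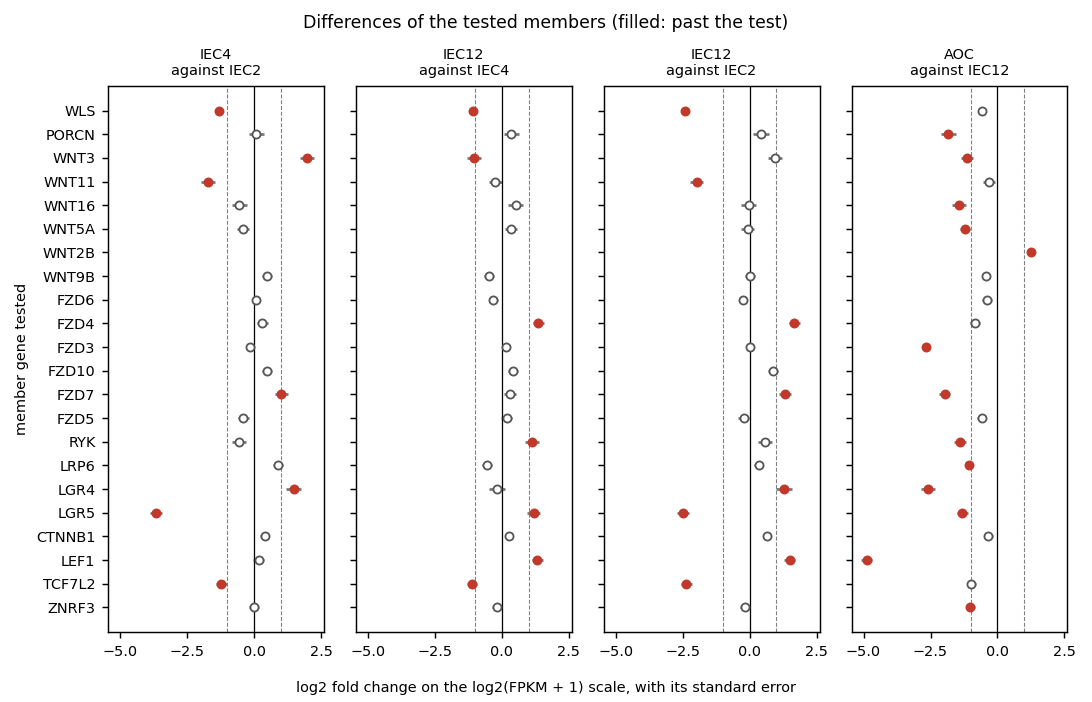
Log2 fold changes (x axis, log2(FPKM + 1) scale, first group minus second) of the tested Wnt genes (rows) in IEC4 against IEC2, IEC12 against IEC4, IEC12 against IEC2 and AOC against IEC12, with bars of ± 1 SE. Filled points passed adjusted p below 0.05 and absolute log2 fold change above 1, FZD10 is left out of the AOC panel because AOC is listed at 0, and WNT2B was tested only there. LGR5 reaches -3.66 in the first panel, and in the AOC panel WNT2B alone lies above 1.

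Of 74 further genes of the pathway set down in a list, 67 were found, and 40 were tested among the IEC libraries. In IEC4 against IEC2, 9 of the 40 were higher and 4 lower, where 18.3% of all genes tested passed. In IEC12 against IEC4 it was 6 and 8, against 22.6% of all genes, and in IEC12 against IEC2 7 and 5, against 21.4%. In AOC against IEC12, 4 of 41 were higher and 11 lower, against 32.6% of all genes. Of the 8 tested secreted or membrane antagonists, 3 rose and 2 fell from IEC2 to IEC4, and 4 were higher and 2 lower in IEC12 than in IEC2. Of the 7 tested genes of the beta-catenin destruction complex, 0 passed limma's test in any comparison between stages at adjusted p below 0.05 and absolute log2 fold change above 1, a count that the shares of all genes just given do not set apart. GSK3B, the kinase that CHIR99021 inhibits, is named here after its values were seen and was at 5.08 to 7.24 FPKM in the 9 IEC libraries.

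DKK1, a secreted inhibitor that binds LRP5 and LRP6, was at 0.205, 0.168 and 0.0759 FPKM in IEC2, 11.4, 2.15 and 2.69 in IEC4 and 682, 552 and 426 in IEC12, and was listed at 0 in AOC. It rose by 2.19 ± 0.44 on the log2 scale from IEC2 to IEC4 and by 6.70 ± 0.44 from IEC4 to IEC12 (limma adjusted p = 0.0038 and 9.97e-06). In IEC12 it thus stood above every one of the 46 Wnt genes, the highest of which was CTNNB1 at 131 ± 25.6. SFRP1, another secreted antagonist, was at 0.37 ± 0.31 FPKM in IEC2, 26.1 ± 15.7 in IEC4 and 4.08 ± 0.206 in IEC12. It rose by 4.19 ± 0.34 and then fell by 2.27 ± 0.34 on the log2 scale (limma adjusted p = 2.71e-05 and 0.000864). SOSTDC1, which antagonises Wnt and BMP signals, rose by 4.42 ± 0.29 from IEC2 to IEC12 (limma adjusted p = 4.51e-06). The antagonists SFRP2 and DKK2, named here after their values were seen, were lower in IEC12 than in IEC2. SFRP2 was at 67 ± 22 FPKM in IEC2, 14.3 ± 2.68 in IEC4 and 3.28 ± 1.5 in IEC12 and fell by 3.99 ± 0.32 on the log2 scale from IEC2 to IEC12 (limma adjusted p = 1.56e-05). DKK2 was at 12.2 ± 1.86, 0.761 ± 0.641 and 4.47 ± 0.523 FPKM and fell by 2.97 ± 0.28 from IEC2 to IEC4 (limma adjusted p = 5.53e-05). From IEC2 to IEC12 it fell by 1.27 ± 0.28 (limma adjusted p = 0.00525), a call lost with a pseudocount of 0.1.

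CDX4, a caudal homeobox gene regulated by Wnt, was at 0.468 ± 0.457 FPKM in IEC2, 17.3 ± 9.12 in IEC4 and 42.6 ± 2.82 in IEC12, with rises from IEC2 of 3.53 ± 0.40 and 4.94 ± 0.40 on the log2 scale (limma adjusted p = 0.000161 and 1.67e-05). MYC was at 0, 0 and 0.131 FPKM in IEC2, 2.4, 9.64 and 17.5 in IEC4, 0, 0 and 0.16 in IEC12 and 80.8, 55.4 and 47.2 in AOC. It rose by 3.07 ± 0.49 from IEC2 to IEC4 and changed by -3.06 ± 0.49 to IEC12 (limma adjusted p = 0.0011 and 0.00109). Among the IEC libraries MYC passed the filter only through IEC4, so it was bound to differ and these p-values are no support. The order of its IEC4 libraries was that of WNT6 and of the summed epithelial markers, and not that of WNT10A. AOC exceeded IEC12 in MYC by 5.85 ± 0.46 and in WIF1, a secreted Wnt-binding inhibitor, by 5.57 ± 0.15 on the log2 scale (limma adjusted p = 6.44e-07 and 7.89e-11). WIF1 was at 51.1 ± 2.64 FPKM in AOC and did not exceed 0.855 in any IEC library. It passed the filter only through AOC, so the difference in WIF1 was bound to be found and its p-value is no support.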

How the data were processed

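The submitters' processing notes name TopHat2 (2.0.12), Bowtie2 (2.2.3), Cufflinks (2.2.1) and the pig build susScr11, the UCSC name of Sscrofa11.1. The study's methods name the Galaxy web tool. The authors deposited 1 table of FPKM per library, and the annotation version and any scaling between libraries are not given in the sources used here. Gene symbols were found for 13998 of 19681 identifiers, and positions came from RefSeq (Sscrofa11.1). Groups and replicate letters came from the sample titles. The iPS cells and the sorted cells of the study are not analysed here.

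Values were tested as log2(FPKM + 1) with limma 3.58.1 (R 4.3.3; lmFit, contrasts.fit, eBayes with trend) on genes that reached an FPKM of 1 in 3 or more libraries. The 9 IEC libraries were fitted together, and all 12 for AOC against IEC12. The call rule was adjusted p below 0.05 and absolute log2 fold change above 1. The study's own limits (p and adjusted p below 0.001, absolute log2 fold change above 3) were an alternative, as were another pseudocount (0.1), no filter, a replicate block, only the groups compared, 2 other scalings, no fold limit and leaving out each replicate. The fit was tested on simulated data for IEC4 against IEC2 only. Of 200 genes with a planted log2 change of 1.5, 164 were called, and of 200 with a change of 3, 198 were. Changes were planted only in better expressed genes, so the simulation does not cover genes near or below an FPKM of 1.

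Wnt genes with a group mean FPKM of at least 1 were named with values and the rest, as a rule, by their highest value. Outside this rule, library values were also given for WNT3A, WNT7A, WNT7B, WNT9A, WNT10A and AXIN2. Of the further pathway genes, the 3 called with the largest change in each comparison were named, with DKK1 and MYC. The genes, lists and tests were chosen with earlier results of these data known.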

Additional observations from a re-analysis of the deposited data

How the results depend on the processing

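FPKM keep no read depth, so the counting error behind values below 1 is unknown, and groups of 3 are too small for a test of outlying samples. Of the log2 fold changes of single Wnt genes, 47 were followed under alternatives. These had a limma adjusted p below 0.05 in the main fit or passed the test under an alternative. Of their 558 values under alternatives, 525 kept their direction and their side of the limits, 21 dropped below them, 12 passed them newly and 0 reversed. Most changes near 0 were left out by this choice, so few reversals could occur. Some of those left out did change sign, such as LEF1 in IEC4 against IEC2 (0.17, down to -0.06). Under the study's limits, 1, 0, 0 and 1 Wnt genes passed in IEC4 against IEC2, IEC12 against IEC4, IEC12 against IEC2 and AOC against IEC12, in place of 7, 7, 8 and 14 (LGR5 in the first, LEF1 in the last), and 2, 1, 4 and 7 of the further pathway genes, in place of 13, 14, 12 and 15. Fewer passed because these limits are stricter. Median-of-ratios scaling left 4 Wnt genes in IEC12 against IEC4, where the scaling shifted the median of all genes from -0.15 to 0.04. With no fold limit, 19 further pathway genes passed in IEC12 against IEC2 and 26 in AOC against IEC12. Leaving out 1 replicate at a time gave 6 to 8, 5 to 7, 8 to 9 and 12 to 14 Wnt genes and 11 to 13, 11 to 15, 11 to 15 and 13 to 16 further genes in the 4 comparisons.

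The groups share the replicate letters A, B and C, and nothing in the labels ties a letter to a shared culture. Libraries that share a letter were compared by their deviations from the group mean, with correlations of -0.0203, 0.0582 and -0.0762 for IEC4 with IEC2, -0.102, 0.0242 and -0.179 for IEC12 with IEC4, 0.247, 0.0242 and 0.204 for IEC12 with IEC2, and -0.366, 0.066 and -0.514 for AOC with IEC12, so the letters were not taken to pair the samples. With the replicate block, the 7, 7, 8 and 14 Wnt genes that passed were the same genes as without it, and 13, 14, 12 and 14 further pathway genes passed.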
